A study of Mus musculus with 12 samples.

Results

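Complex I (NADH:ubiquinone oxidoreductase) was followed here through the transcripts of its nuclear subunits and of the assembly factors named after it. The genes were all those of the counts table whose symbols start with Ndufa, Ndufb, Ndufc, Ndufs or Ndufv, pseudogene and related-sequence symbols left out, which gave 45 genes of 46477. All 45 passed the filter on low counts and were tested. The RNA came from mouse embryonic stem cells (ESCs) of E3.5 C57BL/6 embryos, and the study asked how loss of MTCH2, a protein of the outer mitochondrial membrane, alters the passage from the naïve to the primed state. MTCH2 F/F ESCs, which carry the floxed allele and which the labels call wild type, and MTCH2-/- ESCs were grown in 2i/LIF (LIF with inhibitors of MEK and GSK3), and both were also primed for 2 days with Activin A and FGF2, without LIF and the inhibitors, to give epiblast-like cells (EpiLCs). The priming medium also held knockout serum replacement, and priming took place in Matrigel-coated wells. In the comparisons of priming these parts of the treatment cannot be told apart. There were 3 libraries in each of the 4 groups. The MTCH2-/- cells were MTCH2 F/F cells treated with Cre recombinase, so what the Cre treatment did and what loss of Mtch2 did cannot be told apart. All cells had been kept on irradiated mouse fibroblast feeders before feeder-free culture. The study calls the libraries biological samples, and neither it nor the labels say whether the replicate numbers stand for separate lines or cultures, so the p-values measure the spread between these libraries.

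The libraries held 17453328 to 24068523 counts, and reads of the 45 genes made up 0.205% to 0.267% of them. Mtch2 itself was left at 1.05% of its MTCH2 F/F level in MTCH2-/- ESCs and at 1.53% in MTCH2-/- EpiLCs. On priming, the 8 naïve markers fell at least 2-fold in MTCH2 F/F cells, whereas 6 of them fell in MTCH2-/- cells, 3 at least 2-fold, and the 6 primed markers rose at least 2-fold in both genotypes. The EpiLC groups were not equally primed by these markers, since the summed naïve level of the MTCH2-/- EpiLCs was 518% and the summed primed level 21.7% of that in MTCH2 F/F EpiLCs. In the EpiLC comparisons and in those of the response to priming, genotype and marker state cannot be told apart. The MTCH2-/- ESCs had 1 of the 8 naïve markers lower and a summed naïve level of 85.1% of that in MTCH2 F/F ESCs. Of 4 general pluripotency markers 3 were lower there, where 20.4% of all genes tested were lower, and their sum was 78.5%. The summed primed level was 92.9%. The part of marker state in the ESC differences was not tested. No 2 libraries of a group agreed within sampling noise, and replicate 1 of the MTCH2-/- ESCs and of the MTCH2-/- EpiLCs lay furthest from the others of their group. Feeder RNA was followed by 14 fibroblast markers, of which 11 passed the filter, 10 were higher in MTCH2-/- than in MTCH2 F/F ESCs, and 5 were higher and 2 lower in the EpiLCs. Their summed level, in CPM, the counts scaled to a fixed library total with TMM factors, was 33.6 to 42.3 in MTCH2 F/F ESCs and 45.3 to 50.4 once these were primed, then 43.1 to 64.9 in MTCH2-/- ESCs and 46.9 to 65.1 once primed, with Lum, Twist2 and S100a4 at or near 0. Their part in the results that follow was not tested.

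Complex I is the largest enzyme of the respiratory chain and the main entry point for electrons from NADH. Its peripheral arm, which stands in the matrix, holds the NADH module, where NADH is oxidised at a flavin, and the Q module, where electrons pass over iron-sulfur clusters to ubiquinone. Its membrane arm holds the proximal and distal proton pumps, whose cores are the ND subunits encoded by mitochondrial DNA, and all other subunits are made in the cytosol and imported. Assembly factors join these modules and are not part of the finished enzyme. Naïve ESCs respire, and primed cells lean more on glycolysis.

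As a group, the complex I transcripts were lower in MTCH2-/- cells, both before and after priming, by a small amount each. In ESCs, 27 of the 45 genes were lower in MTCH2-/- cells and 1 was higher at an adjusted p under 0.05 (edgeR quasi-likelihood test, Benjamini-Hochberg over the 17369 genes tested), where 20.4% of all genes tested were lower and 23.3% higher. In EpiLCs, 33 were lower and 0 higher, where 30.2% of all genes were lower and 32.3% higher. For that count of 0, the unadjusted p was under 0.05 and the level higher in 0 genes too, and DESeq2 also called 0. The median log2 fold change over the 45 genes was -0.24 in ESCs and -0.31 in EpiLCs, and over all genes tested it was 0.01 and 0.02. The complex I genes are more abundant than most, with a median of 42.3 CPM against 17.2 for all genes tested. Among the 10074 genes that averaged 10 CPM or more, which include 43 of the 45, 27.6% were lower in ESCs and 36.7% in EpiLCs.

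**Figure D1:**
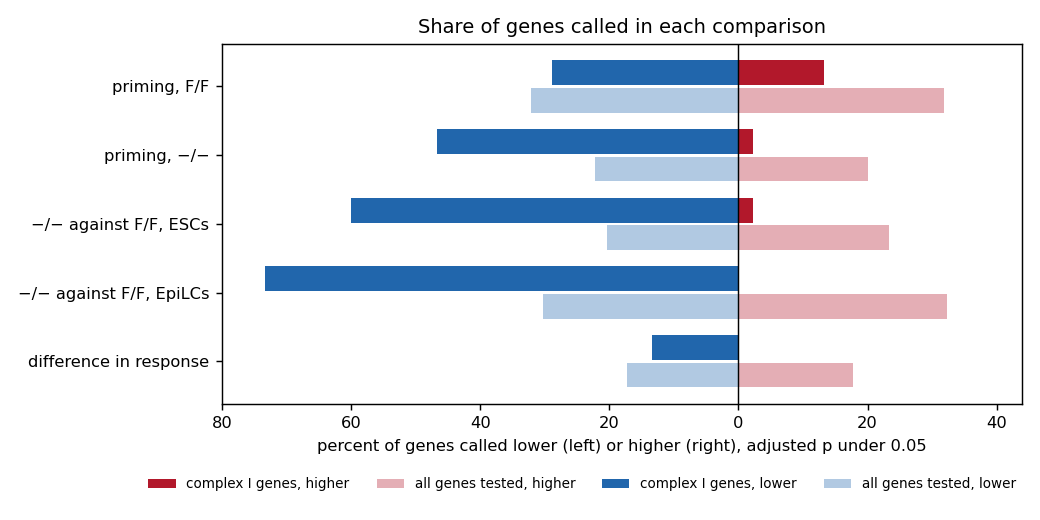
Percent of genes called lower (bars to the left) and higher (bars to the right) at an adjusted p under 0.05 in each of the 5 comparisons, for the 45 complex I genes (dark bars, blue for lower and red for higher) and for all 17369 genes tested (pale bars). The dark bars to the left are longest for MTCH2-/- against MTCH2 F/F cells, with 27 genes in ESCs and 33 in EpiLCs, and no dark bar stands to the right in the EpiLC comparison.

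The differences were small but seen in most libraries. When libraries with the same replicate number were compared, 41, 38 and 38 of the 45 genes were lower in the MTCH2-/- ESCs for replicates 1, 2 and 3, and 35 were lower in all 3 pairs. In EpiLCs 40, 38 and 43 were lower, and again 35 in all 3. Lower in both media were 25 genes, which is 92.6% of the 27 called in ESCs and 75.8% of the 33 called in EpiLCs. The pair counts and this overlap were not computed over all genes tested, so whether other genes show as much was not tested. Ndufa11 and Ndufs1 were called lower in ESCs only, 8 genes in EpiLCs only and 10 in neither, which does not show that their differences vary with the medium. The log2 fold changes in the 2 media had a Pearson correlation of 0.71 over the 45 genes, which share libraries and depth within each medium. The media share no library but are not independent, since deviations of same-numbered libraries correlated across media at 0.107 to 0.471. The correlation of the fold changes over all genes tested was not computed. Without replicate 1 of the MTCH2-/- ESCs, one of the libraries that stood apart, 16 genes were called lower in ESCs, and over all libraries left out in turn the counts were 16 to 29 in ESCs and 28 to 33 in EpiLCs.

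**Figure D2:**
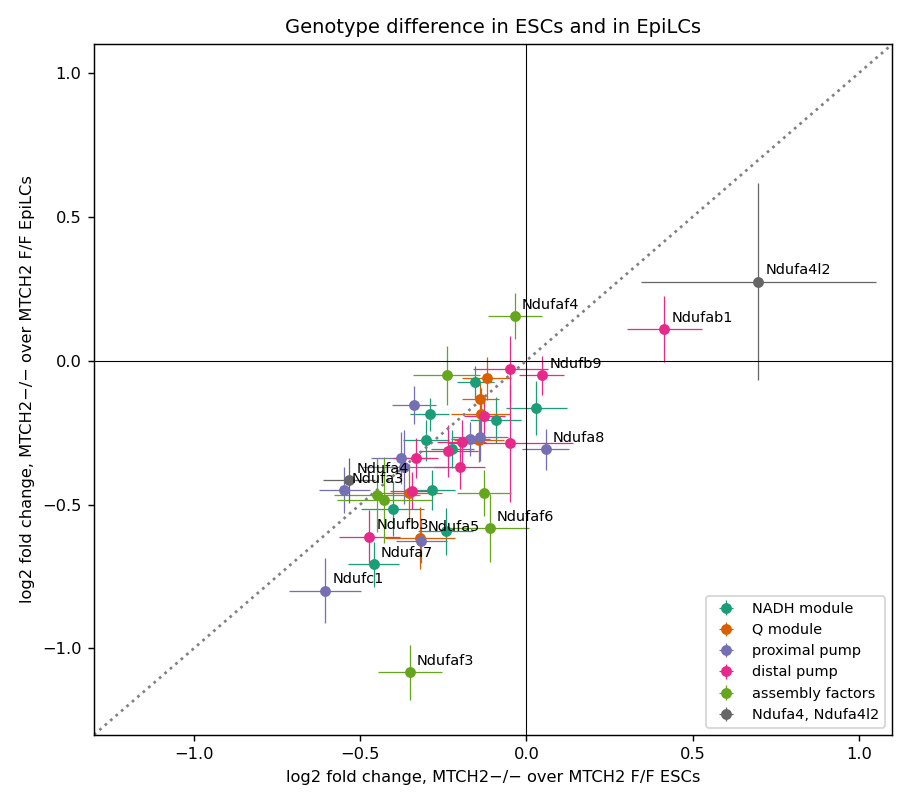
Log2 fold change of each of the 45 genes between MTCH2-/- and MTCH2 F/F cells in ESCs (horizontal axis) and in EpiLCs (vertical axis), coloured by module, with bars of 1 standard error and a dotted line where both are equal. Most points lie below and left of 0, 39 genes being below the MTCH2 F/F mean in both media, Ndufaf3 lies lowest at -1.08 in EpiLCs, and Ndufab1 lies to the right at 0.41 in ESCs. The count of genes below the mean in both media was not computed over all genes tested.

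Summed over the 45 genes, the level was 2697 ± 34.6 CPM (n = 3, mean with SD) for MTCH2 F/F ESCs and 2292 ± 99.0 CPM (n = 3) in MTCH2-/- ESCs, which is 85.0% of the former. In EpiLCs it was 2500 ± 15.1 CPM (n = 3) and 2041 ± 115 CPM (n = 3), or 81.7%. Ndufa4, now assigned to complex IV, is part of these sums. Its means were 171 CPM in MTCH2 F/F and 118 in MTCH2-/- ESCs, and 119 and 89.5 CPM in the EpiLCs. In either medium no MTCH2-/- library reached the lowest MTCH2 F/F library. The highest MTCH2-/- sum was 2399 CPM in ESCs, where the lowest MTCH2 F/F sum was 2657, and 2171 CPM in EpiLCs, where the lowest was 2484. CPM measure a share of the RNA in a library, and these bulk libraries cannot tell fewer transcripts per cell from fewer cells that make them.

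**Figure D3:**
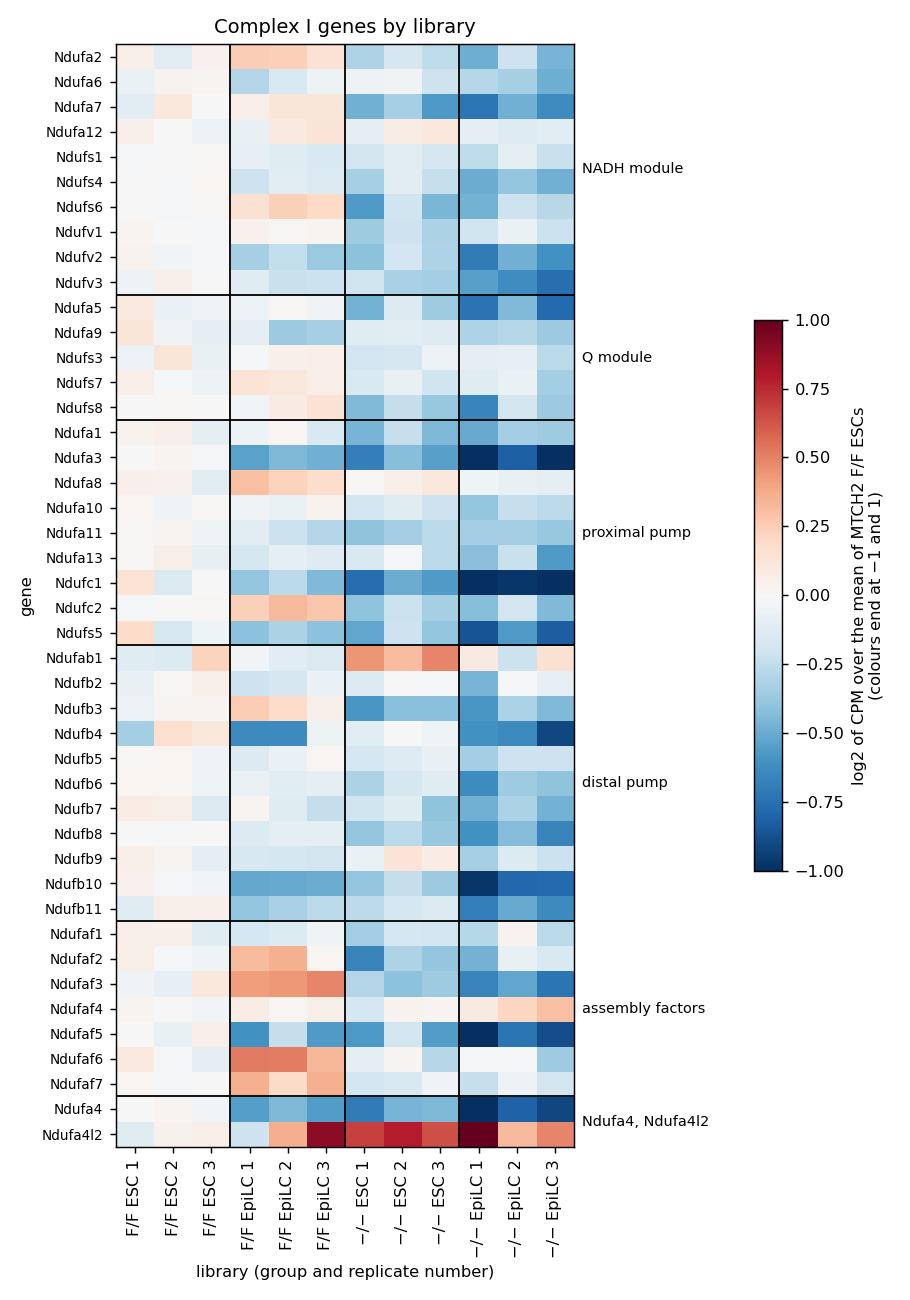
Level of 44 of the 45 genes (rows, by module) in each of the 12 libraries (columns, by group and replicate number), as the log2 of its CPM over the mean of the MTCH2 F/F ESCs. Blue cells, below that mean, fill most of the MTCH2-/- columns, while among the MTCH2 F/F EpiLCs blue and red rows stand side by side.

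In the NADH module, which oxidises NADH, 8 of 10 genes were lower in MTCH2-/- ESCs and 8 of 10 in MTCH2-/- EpiLCs, with medians of -0.26 and -0.29 on the log2 scale. The counts of this and the following modules stand against 20.4% of all genes tested lower in ESCs and 30.2% in EpiLCs. Ndufv1, the subunit that binds NADH and the flavin, stood at 158, 155 and 153 CPM in MTCH2 F/F ESCs and at 121, 134 and 125 in MTCH2-/- ESCs. After priming it stood at 159, 156 and 158 in MTCH2 F/F and 135, 148 and 133 in MTCH2-/- cells. Each MTCH2-/- library was thus below each MTCH2 F/F library of its medium. The log2 fold change was -0.29 in ESCs (SE 0.0582, adjusted p = 8.45e-04), and after priming -0.19 (SE 0.0582, adjusted p = 0.0108). The EpiLC call was lost without replicate 3 of the MTCH2-/- EpiLCs (adjusted p = 0.0535).

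Ndufv2, which holds an iron-sulfur cluster next to Ndufv1, was at 128, 122 and 123 CPM in MTCH2 F/F ESCs and 93.5, 109 and 101 in MTCH2-/- ESCs, and it fell in both genotypes on priming, to 98.9, 105 and 96.2 in MTCH2 F/F and 76.8, 89.3 and 81.7 in MTCH2-/- EpiLCs. The genotype groups did not overlap in either medium, and the log2 fold changes between them were -0.30 (adjusted p = 0.00263) and -0.28 (adjusted p = 0.00299). Ndufs1, the subunit that carries most of the iron-sulfur clusters of this module, was nearer to equal. It was at 152, 154 and 154 CPM in MTCH2 F/F ESCs and 135, 142 and 137 in MTCH2-/- ESCs, a log2 fold change of -0.15 (adjusted p = 0.0351). In EpiLCs, where the groups overlapped, it was at 145, 141 and 138 CPM against 129, 144 and 131 (-0.07, adjusted p = 0.268). The ESC call of Ndufs1 was lost without any one of 4 libraries, replicates 2 and 3 of the MTCH2 F/F ESCs and replicates 1 and 3 of the MTCH2-/- ESCs, with an adjusted p of up to 0.0962.

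The accessory subunits of the NADH module, which surround the catalytic core, included its largest differences. In ESCs only Ndufa7 and Ndufs6 of them differed by more than the core subunit Ndufv2, at -0.30. Ndufa7 was at 105, 121 and 113 CPM in MTCH2 F/F ESCs and 81.0, 89.5 and 75.9 in MTCH2-/- ESCs, and at 118, 123 and 123 in MTCH2 F/F EpiLCs and 68.4, 80.9 and 73.2 in MTCH2-/- EpiLCs. The genotypes were clearly apart, by -0.46 on the log2 scale in ESCs (SE 0.077, adjusted p = 2.04e-04) and by -0.71 in EpiLCs (SE 0.0775, adjusted p = 1.2e-06). Ndufa2 was at 54.7, 48.9 and 54.2 CPM in MTCH2 F/F and 42.4, 46.9 and 44.1 in MTCH2-/- ESCs, and at 62.6, 62.2 and 58.2 against 37.5, 45.7 and 38.2 in EpiLCs (-0.59, adjusted p = 1.27e-05). Its smaller difference in ESCs (-0.24, adjusted p = 0.0238) was lost in 4 of 12 fits that left out a library, those without replicate 1 or 3 of either ESC group (adjusted p up to 0.0839). Ndufs4, Ndufs6 and Ndufv3 were lower in both media, with log2 fold changes of -0.22, -0.40 and -0.28 in ESCs and -0.31, -0.51 and -0.45 in EpiLCs. The ESC call of Ndufs4 was lost without replicate 1 of the MTCH2-/- ESCs (adjusted p = 0.0618). Ndufa12, which joins the module late in assembly, was level between the ESC groups (0.03, adjusted p = 0.818) and did not pass in EpiLCs either (-0.17, adjusted p = 0.134).

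In the Q module, which hands electrons to ubiquinone, 2 of 6 genes were lower in ESCs and 4 in EpiLCs, with medians of -0.14 and -0.23. Ndufs8, whose protein carries iron-sulfur clusters, was at 44.8, 45.4 and 44.9 CPM in MTCH2 F/F ESCs and 33.1, 38.2 and 34.6 in MTCH2-/- ESCs. In EpiLCs it was at 44.3, 47.8 and 49.8 in MTCH2 F/F and 28.6, 39.8 and 34.9 in MTCH2-/- cells. The groups did not overlap in either medium, with log2 fold changes of -0.35 (adjusted p = 0.00926) and -0.46 (adjusted p = 8.32e-04). Ndufa5, an accessory subunit, was at 25.5, 22.8 and 23.3 CPM against 17.2, 21.5 and 18.7 in ESCs (-0.32, adjusted p = 0.0219) and at 22.9, 24.1 and 23.3 against 14.3, 17.6 and 13.9 in EpiLCs (-0.62, adjusted p = 1.25e-04). Its ESC call was lost without replicate 1 of the MTCH2 F/F ESCs or replicate 1 or 3 of the MTCH2-/- ESCs, at an adjusted p of up to 0.103.

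Ndufs7, which holds the last cluster before ubiquinone, had 53.9, 50.9 and 49.6 CPM in MTCH2 F/F ESCs and 46.3, 48.8 and 44.8 in MTCH2-/- ESCs, groups that did not overlap but did not pass the test (-0.14, adjusted p = 0.136). In EpiLCs it was at 56.5, 55.7 and 54.0 against 47.3, 49.2 and 40.7 (-0.28, adjusted p = 0.00441). Ndufs3, a further core subunit, lies 27.8 kb from Mtch2 on chromosome 2 of GRCm38 (90894634 to 90904827), with 1 coding gene between them. It was at 20.9, 23.7 and 20.6 CPM in MTCH2 F/F and 19.1, 19.4 and 20.9 in MTCH2-/- ESCs (-0.14, adjusted p = 0.222), and at 21.5, 22.5 and 22.8 against 20.3, 20.5 and 18.0 in EpiLCs (-0.18, adjusted p = 0.0804). The 95% confidence interval of its difference was -0.32 to 0.05 in ESCs and -0.37 to 0.0032 in EpiLCs, and 15.2% of its 60-base stretches are shared with other annotated transcripts. Ndufa9, an accessory subunit near the membrane, did not pass in either medium (-0.12, adjusted p = 0.207, and -0.06, adjusted p = 0.494).

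In the proximal pump, the part of the membrane arm next to the Q module, 7 of 9 genes were lower in ESCs and 8 in EpiLCs, with a median of -0.34 in each. Ndufc1, an accessory subunit, showed the largest difference among the subunits. It was at 30.8, 25.4 and 27.9 CPM in MTCH2 F/F ESCs and 21.3, 23.2 and 20.6 once these were primed, then 16.5, 19.9 and 18.9 in MTCH2-/- ESCs and 11.9, 14.3 and 11.3 once primed. Neither the genotypes nor the media overlapped, and Ndufc1 was lower by -0.61 in MTCH2-/- ESCs (SE 0.107, adjusted p = 3.21e-04), lower by -0.80 in MTCH2-/- EpiLCs (SE 0.112, adjusted p = 1.51e-05) and fell on priming in each genotype (-0.37, adjusted p = 0.00695, and -0.56, adjusted p = 7.98e-04). Ndufa3 showed much the same order, with 53.6, 54.8 and 53.2 CPM in MTCH2 F/F ESCs and 37.2, 39.5 and 38.7 once these were primed, then 33.6, 40.1 and 37.0 in MTCH2-/- ESCs and 27.0, 30.5 and 27.0 once primed. Its level in the MTCH2-/- ESCs overlapped that of the primed MTCH2 F/F cells, while the genotype difference was -0.55 in ESCs (adjusted p = 3.99e-05) and -0.45 in EpiLCs (adjusted p = 1.31e-04).

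Ndufc2, the partner of Ndufc1 in the membrane, was at 47.1, 47.3 and 47.8 CPM in MTCH2 F/F and 35.8, 40.9 and 37.7 in MTCH2-/- ESCs (-0.32, adjusted p = 0.00394), and at 55.8, 59.3 and 57.6 against 35.4, 41.8 and 34.8 in EpiLCs (-0.63, adjusted p = 4.59e-06). Ndufa8, a subunit on the side of the intermembrane space, was alike in the ESCs of both genotypes, at 35.6, 35.4 and 31.9 CPM in MTCH2 F/F and 34.5, 35.7 and 37.0 in MTCH2-/- cells (0.06, SE 0.0708, adjusted p = 0.536). It was apart in EpiLCs, at 42.3, 40.2 and 38.8 in MTCH2 F/F and 33.3, 32.6 and 32.0 in MTCH2-/- cells (-0.31, adjusted p = 0.00138). Ndufa1, Ndufa10 and Ndufs5 were lower in both media, Ndufa11 passed in ESCs only (-0.34, against -0.15 at an adjusted p of 0.0552 in EpiLCs) and Ndufa13 in EpiLCs only (-0.27, against -0.14 at an adjusted p of 0.194 in ESCs). Ndufa11 did pass in EpiLCs with the replicate block (adjusted p = 0.0457), RLE scaling, upper quartile scaling and DESeq2 (0.0392 to 0.0436), and without MTCH2 F/F EpiLC replicate 3 (0.0243). The ESC call of Ndufa10 was lost without replicate 1 or 3 of either ESC group (adjusted p up to 0.091) and with no filter (0.0536). Ndufs5 lost its ESC call without replicate 1 of the MTCH2 F/F ESCs or replicate 1 or 3 of the MTCH2-/- ESCs (up to 0.1), and its EpiLC call without MTCH2 F/F EpiLC replicate 2 or replicate 1 or 3 of the MTCH2-/- EpiLCs (up to 0.074). Ndufa13 did not pass in EpiLCs without replicate 3 of the MTCH2-/- EpiLCs (0.0788).

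In the distal pump, at the far end of the membrane arm, 6 of 11 measured genes were lower and 1 higher in ESCs and 7 were lower in EpiLCs, with medians of -0.19 and -0.29. Ndufb3 was at 23.3, 24.6 and 24.7 CPM in MTCH2 F/F and 16.2, 18.1 and 18.1 in MTCH2-/- ESCs (-0.47, adjusted p = 6.99e-04), and at 28.9, 27.5 and 25.0 against 16.2, 19.5 and 17.8 in EpiLCs (-0.61, adjusted p = 3.16e-05). Ndufb10 was at 79.6, 76.4 and 75.6 CPM in MTCH2 F/F ESCs and 58.7, 65.3 and 59.9 in MTCH2-/- ESCs (-0.33, adjusted p = 9.13e-04), and at 54.2, 54.5 and 54.9 against 39.3, 44.9 and 45.1 in EpiLCs (-0.34, adjusted p = 4.9e-04). Both genes separated the genotypes in each medium. Ndufb11 differed less, at 46.8, 52.9 and 52.8 against 42.3, 45.0 and 45.9 CPM in ESCs (-0.19, adjusted p = 0.0439), and at 38.8, 40.7 and 42.0 against 31.5, 35.8 and 32.6 in EpiLCs (-0.28, adjusted p = 0.00418). Its ESC call was kept in 6 of 12 fits without a library and had an adjusted p of up to 0.146 in the others, which left out MTCH2 F/F ESC replicate 2 or 3, any MTCH2-/- ESC library or replicate 3 of the MTCH2-/- EpiLCs. Ndufb6, Ndufb7 and Ndufb8 were lower in both media. In ESCs the calls of Ndufb6 (-0.20, adjusted p = 0.046) and Ndufb7 (-0.24, adjusted p = 0.0431) were near the threshold. That of Ndufb6 was lost without any MTCH2 F/F ESC library, replicate 1 or 2 of the MTCH2-/- ESCs or replicate 3 of the MTCH2-/- EpiLCs (up to 0.184), and with upper quartile scaling, no filter or a strict filter (up to 0.0601). That of Ndufb7 was lost without replicate 1 or 2 of the ESC libraries of MTCH2 F/F cells, replicate 1 or 3 of the MTCH2-/- ESCs or replicate 3 of the MTCH2-/- EpiLCs (up to 0.187), and with upper quartile scaling or a strict filter (up to 0.0777). Ndufb2 and Ndufb9 had log2 fold changes of -0.05 to 0.05, with adjusted p-values of 0.531 to 0.839.

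Ndufab1 was the 1 member higher in MTCH2-/- ESCs, and it was singled out after its values were seen. It encodes the mitochondrial acyl carrier protein, which serves lipoic acid synthesis as well as complex I. It was at 18.2, 18.1 and 23.1 CPM in MTCH2 F/F ESCs and 26.9, 24.5 and 27.8 in MTCH2-/- ESCs, groups that did not overlap (0.41, SE 0.113, adjusted p = 0.00758). In EpiLCs, at 19.4, 18.4 and 17.9 against 21.1, 17.0 and 22.0 CPM, the groups overlapped (0.11, adjusted p = 0.418). The ESC call was lost without replicate 1 or replicate 2 of the MTCH2 F/F ESCs (adjusted p up to 0.0568). Of the 60-base stretches of Ndufab1, 8.76% are shared with other annotated transcripts, those of the pseudogene Ndufab1-ps among them.

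The assembly factors included the largest difference of all 45 genes. Of the 7 measured, 3 were lower in MTCH2-/- ESCs and 5 in MTCH2-/- EpiLCs, with medians of -0.24 and -0.47. Ndufaf3, which binds the early Q module together with Ndufaf4, was at 14.6, 14.1 and 16.1 CPM in MTCH2 F/F ESCs and 12.2, 11.3 and 11.7 in MTCH2-/- ESCs. After priming it was at 20.0, 20.2 and 20.9 in MTCH2 F/F cells and 9.40, 10.4 and 9.02 in MTCH2-/- cells. No groups of this gene overlapped, and the EpiLCs lay above the ESCs in MTCH2 F/F cells and below them in MTCH2-/- cells. The log2 fold change between genotypes was -0.35 in ESCs (SE 0.096, adjusted p = 0.00781), and after priming -1.08 (SE 0.0969, adjusted p = 1.47e-07), the 1 difference of at least 2-fold among the members. Its partner Ndufaf4 did not pass in either medium, at 28.0, 27.7 and 26.9 against 24.4, 28.1 and 28.1 CPM in ESCs (-0.03, adjusted p = 0.756) and 28.9, 28.0 and 28.7 against 29.4, 32.0 and 33.9 in EpiLCs (0.15, adjusted p = 0.107).

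Ndufaf5, whose human protein modifies NDUFS7, was at 17.3, 16.4 and 18.1 CPM in MTCH2 F/F and 11.6, 15.2 and 11.7 in MTCH2-/- ESCs (-0.43, adjusted p = 0.0238), and at 11.4, 14.6 and 11.7 against 7.26, 10.4 and 9.36 in EpiLCs (-0.48, adjusted p = 0.0106). The groups did not overlap in either medium, but the ESC call was lost without replicate 3 of the MTCH2 F/F ESCs or replicate 1 or 3 of the MTCH2-/- ESCs (adjusted p up to 0.0897), and the EpiLC call without replicate 2 of the MTCH2 F/F or replicate 1 of the MTCH2-/- EpiLCs (adjusted p up to 0.068). Ndufaf7, whose human protein is a methyltransferase, was at 28.2, 27.6 and 28.0 against 24.4, 25.1 and 27.3 CPM in ESCs (-0.13, adjusted p = 0.215) and at 35.8, 31.9 and 35.8 against 23.8, 26.9 and 24.6 in EpiLCs (-0.46, adjusted p = 1.27e-04). Ndufaf6, which in human cells is needed for early assembly of the membrane arm, was at 13.6, 12.5 and 11.9 against 11.8, 12.9 and 10.4 CPM in ESCs (-0.11, adjusted p = 0.478) and at 18.1, 18.1 and 15.9 against 12.5, 12.5 and 9.89 in EpiLCs (-0.58, adjusted p = 4.95e-04). In ESCs the groups of Ndufaf6 overlapped and those of Ndufaf7 nearly touched, and in EpiLCs both genes stood apart. Ndufaf2, a late chaperone related to Ndufa12, was lower in both media (-0.45, adjusted p = 0.011, and -0.47, adjusted p = 0.0051), at 15.5, 14.7 and 14.5 against 9.36, 12.1 and 11.4 CPM in ESCs and 18.6, 19.1 and 15.1 against 10.7, 14.2 and 13.4 in EpiLCs. Without replicate 1 of the MTCH2-/- ESCs, its ESC value had an adjusted p of 0.0585. Of its exon length 65.7% overlaps B230220B15Rik on the other strand, and the library kit named in the labels does not keep the strand, so reads of the pair cannot be told apart. Ndufaf1, which acts in the assembly of the membrane arm, did not pass in either medium (-0.24, adjusted p = 0.0644, and -0.05, adjusted p = 0.675). In ESCs it did pass with the replicate block (adjusted p = 0.0381), RLE scaling (0.047) and DESeq2 (0.0479), and without replicate 3 of the MTCH2 F/F ESCs or replicate 2 of the MTCH2-/- EpiLCs (0.0377 and 0.0382).

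A pair of symbols in the group lies outside these modules. Ndufa4, which was first isolated with complex I and is now assigned to complex IV, was the most abundant member per kilobase of exon in MTCH2 F/F ESCs. It was at 171, 174 and 168 CPM in MTCH2 F/F ESCs and 117, 125 and 116 once these were primed, then 105, 124 and 125 in MTCH2-/- ESCs and 80.3, 97.7 and 90.6 once primed. It was thus lower in MTCH2-/- cells in both media (-0.53, adjusted p = 5.48e-05, and -0.42, adjusted p = 2.58e-04) and fell on priming in both genotypes. Ndufa4l2, its paralog known from hypoxic cells, was the least abundant, at 0.328 to 0.802 CPM in every library, and passed in no comparison (ESCs 0.70, adjusted p = 0.123, and EpiLCs 0.27, adjusted p = 0.503).

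Levels were compared between genes only as CPM per kilobase of exon, in MTCH2 F/F ESCs. The length is that of all annotated exons of a gene merged, which can exceed the length of any single transcript. They ran from 0.345 for Ndufa4l2 to 124 for Ndufa4. The assembly factors were at 5.01 to 15.3 with a median of 8.23, and the medians of the modules were 34.6 for the NADH module, 32.4 for the Q module, 52.7 for the proximal pump and 30.8 for the distal pump. The ranges overlapped, as Ndufab1, Ndufb2 and Ndufb4 of the distal pump lay below every assembly factor per kilobase. The merged exons of Ndufab1 and Ndufb2 are long, at 6883 and 5628 bases. Before division by length their means were 19.8 and 15.2 CPM, within the 12.7 to 27.9 CPM of the assembly factors. The order of genes and modules per kilobase thus depends on the length taken and is uncertain. Ndufb4 shares 17.8% of its 60-base stretches with other annotated transcripts, those of the copy Ndufb4c among them, so its level of 3.23, 4.59 and 4.41 CPM in MTCH2 F/F ESCs and 3.77, 4.09 and 3.96 in MTCH2-/- ESCs is uncertain. In EpiLCs it was at 2.62, 2.62 and 3.93 against 2.67, 2.62 and 2.17 CPM, and it passed in neither genotype comparison (-0.05, adjusted p = 0.856, and -0.29, adjusted p = 0.234).

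Priming was followed by falls of some complex I genes in each genotype, while 26 of the 45 in MTCH2 F/F cells and 23 in MTCH2-/- cells passed in neither direction. In MTCH2 F/F cells 13 genes fell and 6 rose, shares below or near those of all genes tested, of which 32.1% fell and 31.9% rose. In MTCH2-/- cells 21 fell and 1 rose, where 22.2% of all genes tested fell and 20.0% rose. The medians over the 45 genes were -0.09 and -0.15, and over all genes tested -0.01 and -0.02. The summed level in EpiLCs was 92.7% of that in ESCs for MTCH2 F/F cells and 89.1% for MTCH2-/- cells. Ndufa4, now assigned to complex IV, is in these sums, and its mean went from 171 to 119 CPM and from 118 to 89.5 CPM. Of the genes that fell, 12 fell in both genotypes, which is 92.3% of the 13 and 57.1% of the 21. This overlap was not computed over all genes tested. The count of genes that fell in MTCH2-/- cells was 13 without replicate 2 of the MTCH2-/- ESCs, 13 without replicate 1 of the MTCH2-/- EpiLCs and 12 without replicate 3 of the MTCH2-/- EpiLCs. With only the compared groups in each fit, 18 genes fell in MTCH2 F/F cells and 13 in MTCH2-/- cells, so which genotype had more falls turned with the fit, and with upper quartile scaling 9 and 19 fell.

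Among the genes that fell in both genotypes, Ndufb10 had log2 fold changes of -0.50 in MTCH2 F/F (adjusted p = 7.36e-06) and -0.51 in MTCH2-/- cells (adjusted p = 2.05e-05), and Ndufa4 of -0.52 (adjusted p = 2.25e-05) and -0.40 (adjusted p = 6.71e-04). Ndufa3 fell by 0.49 and 0.39 on the log2 scale, Ndufaf5 by 0.46 and 0.52, Ndufb11 by 0.33 and 0.42, and Ndufv2 by 0.31 and 0.29. Ndufaf5 did not pass without MTCH2 F/F EpiLC replicate 1 in MTCH2 F/F cells (adjusted p = 0.0548), nor without replicate 2 of the MTCH2-/- ESCs or replicate 1 of the MTCH2-/- EpiLCs in MTCH2-/- cells (up to 0.0648). Ndufb4 fell in MTCH2-/- cells (-0.66, adjusted p = 0.0133) and had -0.42 at an adjusted p of 0.071 in MTCH2 F/F cells, and its call was lost without replicate 3 of the MTCH2-/- EpiLCs (adjusted p = 0.0581). Ndufa5 fell in MTCH2-/- cells too (-0.32, adjusted p = 0.0236), a call lost without replicate 2 of the MTCH2-/- ESCs or replicate 1 or 3 of the MTCH2-/- EpiLCs (up to 0.126).

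Of the core subunits, Ndufs1 had -0.12 on the log2 scale in MTCH2 F/F cells (adjusted p = 0.0776, and 0.0499 with the replicate block) and -0.04 in MTCH2-/- cells (adjusted p = 0.632). Ndufv1 had 0.03 (adjusted p = 0.708) and 0.13 (adjusted p = 0.0843, and 0.0491 with the block), which makes 2 genes that rose in MTCH2-/- cells under the block. Ndufs3, Ndufs7 and Ndufs8 passed in neither genotype, at -0.04 to 0.11 with adjusted p-values of 0.225 or more. Ndufa7 had 0.10 (adjusted p = 0.262) in MTCH2 F/F cells and -0.15 (adjusted p = 0.139, and 0.0426 with the block) in MTCH2-/- cells.

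The 6 genes that rose in MTCH2 F/F cells were Ndufa2 of the NADH module, Ndufa8 and Ndufc2 of the proximal pump and the assembly factors Ndufaf3, Ndufaf6 and Ndufaf7. They rose by 0.21 (adjusted p = 0.0299), 0.24 (adjusted p = 0.00817), 0.28 (adjusted p = 0.00476), 0.45 (adjusted p = 5.81e-04), 0.46 (adjusted p = 0.00293) and 0.30 (adjusted p = 0.00332) on the log2 scale. In MTCH2-/- cells Ndufaf3 fell (-0.29, adjusted p = 0.0285) and the other five had log2 fold changes of -0.14 to -0.01 with adjusted p-values of 0.157 to 0.934. The rise of Ndufa2 was lost without replicate 2 of the MTCH2 F/F ESCs or MTCH2 F/F EpiLC replicate 1 or 2 (adjusted p up to 0.15), that of Ndufa8 without replicate 3 of the MTCH2 F/F ESCs (0.0579), and the fall of Ndufaf3 without replicate 1 or 3 of the MTCH2-/- ESCs or of the MTCH2-/- EpiLCs (up to 0.104), and also with no filter (0.0936) and with only the compared groups in the fit (0.107). The 1 gene that rose in MTCH2-/- cells was Ndufaf4 (0.24, adjusted p = 0.024), named after its values were seen, which had 0.05 in MTCH2 F/F cells (adjusted p = 0.599). Its call was lost without replicate 1 of the MTCH2-/- ESCs and without replicate 2 or 3 of the MTCH2-/- EpiLCs (adjusted p up to 0.115), and with no filter (0.0568) or only the compared groups in the fit (0.0642).

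The same 6 genes were those whose response to priming differed between genotypes by the interaction term. That term holds the same difference between MTCH2 F/F EpiLCs and ESCs by which they were called as rising, so the lists are not independent. All 6 genes were lower in the MTCH2-/- response, 6 of the 45 genes against 17.2% of all genes tested, and 0 were higher against 17.8%. For that 0, edgeR's unadjusted p was under 0.05 in 0 genes and DESeq2 called 0. The differences of the log2 fold changes were -0.73 for Ndufaf3 (SE 0.136, adjusted p = 6.38e-04), -0.47 for Ndufaf6 (SE 0.168, adjusted p = 0.0394), -0.37 for Ndufa8 (SE 0.1, adjusted p = 0.00975), -0.35 for Ndufa2 (SE 0.115, adjusted p = 0.0268), -0.33 for Ndufaf7 (SE 0.113, adjusted p = 0.032) and -0.31 for Ndufc2 (SE 0.11, adjusted p = 0.0391). Thus 3 of the 7 assembly factors were among them. Ndufaf3 and Ndufa8 kept the call without any one library, while Ndufa2, Ndufaf6, Ndufaf7 and Ndufc2 lost it in 6, 7, 8 and 10 of 12 such fits, with an adjusted p of up to 0.1, 0.104, 0.0962 and 0.113. The count was 2 without replicate 2 of the MTCH2 F/F ESCs, replicate 3 of the MTCH2-/- EpiLCs or replicate 1 of the MTCH2 F/F EpiLCs. It was 3 without MTCH2 F/F EpiLC replicate 2, replicate 2 of the MTCH2-/- ESCs or replicate 1 of the MTCH2-/- EpiLCs. Ndufa7 was next, with -0.25 at an adjusted p of 0.0881, which was 0.0198 with the replicate block.

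**Figure D4:**
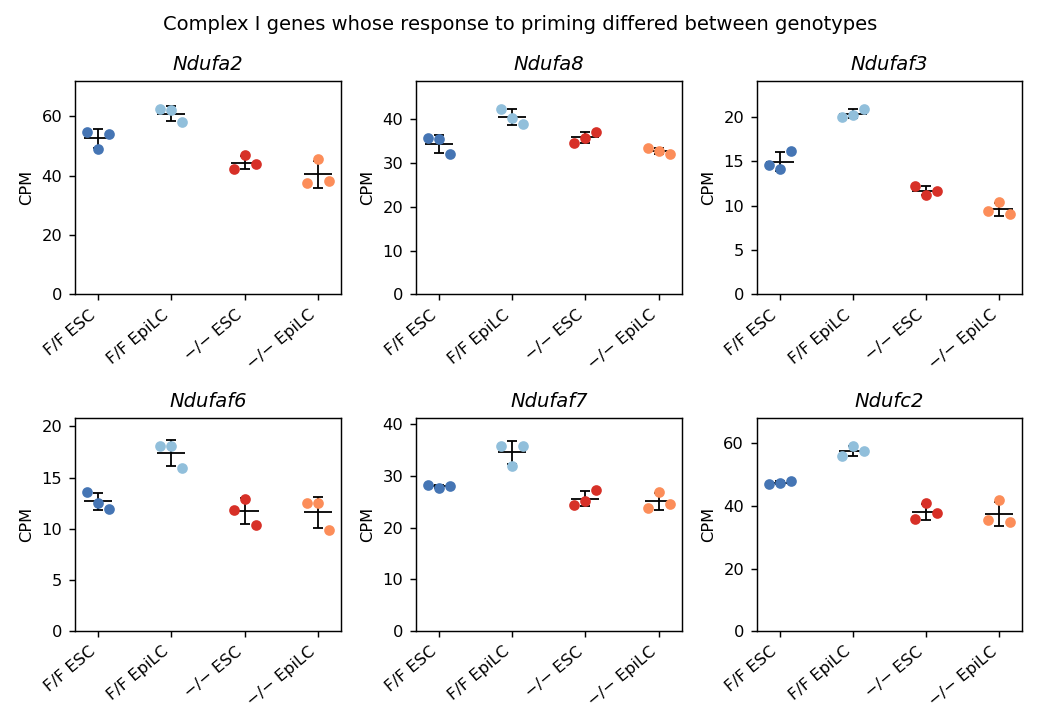
CPM of the 6 genes whose response to priming differed between genotypes, each point being a library, with the mean and SD of the 3 libraries of a group. In each panel the MTCH2 F/F EpiLCs are the highest group, with 20.0 to 20.9 CPM for Ndufaf3, and the MTCH2-/- EpiLCs lie below them, with 9.02 to 10.4 CPM.

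The mitochondrially encoded subunits of the same enzyme moved far more than the nuclear ones. The 7 ND genes form the core of the membrane arm. Of these, mt-Nd1, mt-Nd2, mt-Nd4, mt-Nd5 and mt-Nd6 passed the filter, and mt-Nd3 and mt-Nd4l were at or near 0 in every library. mt-Nd1 was at 4127, 4118 and 4304 CPM in MTCH2 F/F ESCs and 984, 1197 and 1124 in MTCH2-/- ESCs. In EpiLCs it was at 2727, 2780 and 2852 against 924, 1017 and 948 CPM. All 5 were lower at least 2-fold in MTCH2-/- cells in both media, with log2 fold changes of -2.01 to -1.83 in ESCs and -1.53 to -1.21 in EpiLCs. The summed level of all 7 in MTCH2-/- cells was 25.9% of that in MTCH2 F/F cells in ESCs (2615 ± 169 against 10093 ± 420 CPM, n = 3 each) and 35.8% in EpiLCs (2401 ± 71.5 against 6697 ± 210 CPM, n = 3 each). The ratio of this sum to that of the 45 nuclear genes was 3.74 ± 0.204 in MTCH2 F/F ESCs and 2.68 ± 0.0963 once these were primed, then 1.14 ± 0.0243 in MTCH2-/- ESCs and 1.18 ± 0.0386 once primed (n = 3 each). The libraries were made from poly-A RNA, which carries the transcripts of mitochondrial DNA only as far as they are polyadenylated. mt-Nd6 lies on the other strand of that DNA. Since the library kit does not keep the strand, reads of mt-Nd6 cannot be told from reads of opposite-strand RNA over it, and its values are uncertain.

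On priming, the 5 ND genes fell in MTCH2 F/F cells by 0.50 to 0.73 on the log2 scale, and only mt-Nd1 of them fell in MTCH2-/- cells (-0.19, adjusted p = 0.032). The responses differed by 0.39 to 0.61, the MTCH2-/- value being the higher one for each gene, which is the opposite sign to the 6 nuclear genes above. The summed ND level after priming was 66.4% of that before in MTCH2 F/F cells and 91.8% in MTCH2-/- cells.

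**Figure D5:**
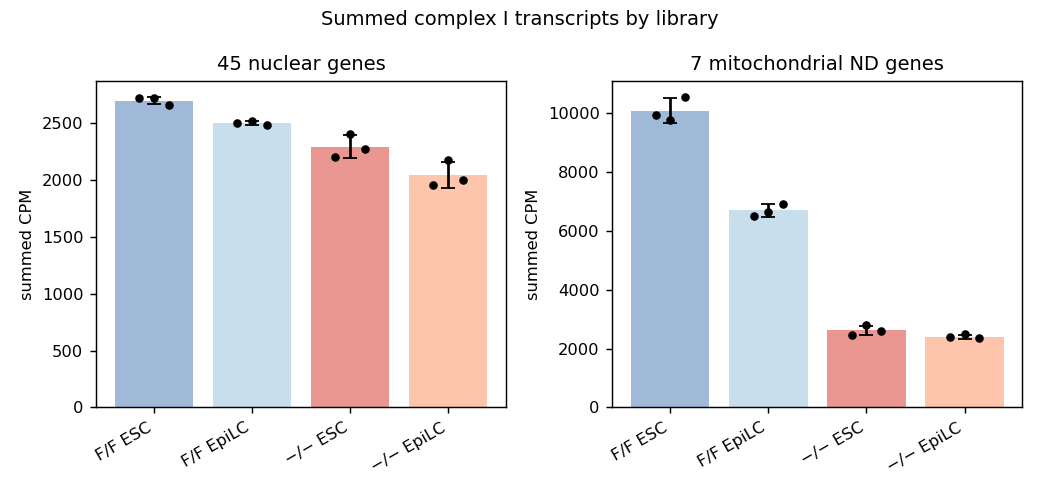
Summed CPM of the 45 nuclear genes, Ndufa4 among them (left), and of the 7 mitochondrially encoded ND genes (right) in each group. Points stand for the 3 libraries, bars for their mean and lines for 1 SD. The nuclear sum is 2292 CPM in MTCH2-/- ESCs against 2697 in MTCH2 F/F ESCs, while the ND sum is 2615 against 10093.

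The other complexes of the chain gave the setting. Among their nuclear genes, 3 of 8 of complex II, 7 of 15 of complex III, 8 of 21 of complex IV and 14 of 20 of complex V were lower in MTCH2-/- ESCs, and 0, 1, 2 and 1 were higher. In EpiLCs 5, 10, 6 and 15 were lower and 0, 0, 4 and 2 higher. Of all genes tested, 20.4% were lower and 23.3% higher in ESCs, and 30.2% were lower and 32.3% higher in EpiLCs. For complex IV the share lower in EpiLCs, 28.6%, was thus near that of all genes. The median log2 fold changes of complexes II, III, IV and V were -0.20, -0.21, -0.14 and -0.35 in ESCs and -0.26, -0.25, -0.10 and -0.39 in EpiLCs, so that the -0.24 and -0.31 of complex I lay within their range. For the counts of 0 in complexes II and III, edgeR is the test meant, and no other tool was counted over those lists.

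Assembly factors under other names moved in both directions. Of 13 listed, 10 were measured. MTCH2-/- ESCs had 4 of them higher and 3 lower, and MTCH2-/- EpiLCs had 2 higher and 5 lower. Of all genes tested, 23.3% were higher and 20.4% lower in ESCs, and 32.3% were higher and 30.2% lower in EpiLCs. Nubpl, which inserts iron-sulfur clusters, was lower by -0.50 in ESCs (adjusted p = 0.00787) and -0.76 in EpiLCs (adjusted p = 1.43e-04), and Aifm1, needed for the import of several subunits, by -0.47 (adjusted p = 1.16e-04) and -0.58 (adjusted p = 7.02e-06). Tmem126b, of the assembly complex of the membrane arm, was higher by 0.38 (adjusted p = 0.00757) and 0.55 (adjusted p = 2.64e-04). Its partner Ecsit had -0.23 in ESCs (adjusted p = 0.0581) and was lower by -0.70 in EpiLCs (adjusted p = 5.67e-06). Ecsit rose on priming in both genotypes, MTCH2 F/F cells going from 31.4, 36.3 and 30.1 to 59.9, 64.1 and 62.5 CPM and MTCH2-/- cells from 27.6, 28.4 and 27.5 to 35.4, 43.7 and 35.4. That response was smaller in MTCH2-/- cells (difference -0.48, adjusted p = 0.00864), as were those of Timmdc1 (-0.54, adjusted p = 0.00339) and Tmem126a (-0.35, adjusted p = 0.0354).

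Of 12 regulators of nuclear respiratory genes and of mitochondrial transcription, 6 were lower and 1 higher in MTCH2-/- ESCs, and 4 were lower and 2 higher in EpiLCs. Of all genes tested, 20.4% were lower and 23.3% higher in ESCs, and 30.2% were lower and 32.3% higher in EpiLCs. The 33.3% of regulators lower in EpiLCs were thus near the share of all genes, and the 16.7% higher there were below it. Gabpa, the DNA-binding subunit of an ETS factor of respiratory genes, was at 198, 209 and 212 CPM in MTCH2 F/F and 143, 160 and 163 in MTCH2-/- ESCs (-0.41, adjusted p = 1.86e-04). In EpiLCs it was at 127, 140 and 148 against 144, 148 and 140 (0.06, adjusted p = 0.457), groups that overlapped. Ppargc1b, a coactivator, was lower in MTCH2-/- EpiLCs (-0.78, adjusted p = 3.99e-04) and level in ESCs (-0.05, adjusted p = 0.815). Ppargc1a was nearly absent from MTCH2 F/F cells, at 0 to 0.293 CPM, and was at 0.682 to 3.93 CPM in MTCH2-/- cells.

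Promoters were read for the members with the largest difference and for those that show a motif of a known regulator of respiratory genes. Windows of 300 bases, from 250 before to 50 after the RefSeq start of each gene (GRCm38.p6), were found for 39 of the 45 members. Both strands were searched for GCGCATGCG (NRF1), CCGGAAGT (ETS factors such as GABP) and AAGATGGCG (YY1), letters that do not contain one another. NRF1 letters stood in 4 of 39 (10.3%, against 1.95% of 27025 genes), those of Ndufa8, Ndufa11, Ndufaf4 and Ndufaf5. YY1 letters stood in 5 (12.8%, against 1.64%), those of Ndufa9, Ndufc1, Ndufs4, Ndufs6 and Ndufs7, and ETS letters in 1 (2.56%, against 4.31%), that of Ndufs3. The median GC content was 59.3% and 52.7% and the median number of CpG 20 and 7 in members and in all genes, so the windows differ in base composition too, and a match of letters is a description only. The first window shown is that of Ndufc1 at chr3:51408906-51409205 on the minus strand, the subunit with the largest difference, with the YY1 letters in capitals from base 273. The second is that of Ndufa8 at chr2:36049289-36049588 on the minus strand, with the NRF1 letters in capitals from base 242, read on the other strand. The third is that of Ndufaf3 at chr9:108567387-108567686 on the minus strand, the gene with the largest difference of all, which holds none of the 3 motifs and has no capitals.
Ndufc1: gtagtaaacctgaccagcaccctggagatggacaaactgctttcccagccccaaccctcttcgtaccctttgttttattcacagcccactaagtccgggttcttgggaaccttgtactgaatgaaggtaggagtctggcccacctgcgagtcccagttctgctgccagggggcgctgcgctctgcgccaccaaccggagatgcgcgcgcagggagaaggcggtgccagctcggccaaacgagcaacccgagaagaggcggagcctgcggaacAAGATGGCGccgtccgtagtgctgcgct
Ndufa8: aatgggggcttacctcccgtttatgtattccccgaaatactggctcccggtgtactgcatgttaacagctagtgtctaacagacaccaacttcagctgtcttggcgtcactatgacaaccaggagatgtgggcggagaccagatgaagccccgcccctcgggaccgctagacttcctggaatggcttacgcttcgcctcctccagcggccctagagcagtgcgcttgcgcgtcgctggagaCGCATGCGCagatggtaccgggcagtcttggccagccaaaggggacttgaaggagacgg
Ndufaf3: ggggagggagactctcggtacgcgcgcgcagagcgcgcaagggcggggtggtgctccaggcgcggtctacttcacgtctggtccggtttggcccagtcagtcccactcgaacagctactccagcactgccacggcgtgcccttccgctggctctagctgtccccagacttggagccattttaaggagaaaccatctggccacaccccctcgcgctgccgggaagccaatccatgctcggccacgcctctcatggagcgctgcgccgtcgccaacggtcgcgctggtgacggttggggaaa
The genotype calls of these genes were as follows. Among the 4 with NRF1 letters, Ndufaf5 was lower in MTCH2-/- cells in both media, Ndufa11 passed in ESCs only, Ndufa8 in EpiLCs only and Ndufaf4 in neither, and whether the genes differ from one another was not tested. Of the 5 with YY1 letters, Ndufc1, Ndufs4 and Ndufs6 were lower in both media, Ndufs7 in EpiLCs only and Ndufa9 in neither. Nrf1 itself was lower in MTCH2-/- ESCs (-0.30, adjusted p = 0.00182) and had -0.10 in EpiLCs (adjusted p = 0.209), and Yy1 had -0.28 (adjusted p = 0.00535) and -0.16 (adjusted p = 0.0607).

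The 45 genes lie on 16 chromosomes of GRCm38, with 6 on chromosome 17 and 2 on X. Ndufa8, Ndufaf1, Ndufaf5 and Ndufs3 lie on chromosome 2, as Mtch2 does. Of the 45, 22 share no 60-base stretch with other annotated transcripts and 10 share over 10% of theirs, and 7 have over 10% of their exon length overlapped by another gene. Those 7 are Ndufa2, Ndufa13, Ndufaf2, Ndufb5, Ndufb6, Ndufb9 and Ndufb11. Their counts may hold reads of the neighbour or lack reads that fell in the overlap, since how such reads were assigned is not stated. Ndufc1, Ndufa7, Ndufa3 and Ndufaf3 share at most 1.77% of their 60-base stretches and have at most 2.64% of their exons overlapped.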

How the data were processed

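Poly-A RNA of 12 libraries was read as single-end 60-base reads on a HiSeq 2500. The authors aligned the reads with TopHat2 2.0.10 to GRCm38 and counted them per gene with HTSeq 0.6.1p1 on Ensembl release 82, and the deposited values used here are these raw counts. No source used here states whether HTSeq was run with strand. Alongside, 12 normalized columns of the same file were not used, and a further table, which holds the authors' own fold changes and adjusted p-values, was not used either.

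Counts were filtered with filterByExpr, scaled by TMM and fitted in 1 model of 4 groups with edgeR 4.0.16 (quasi-likelihood F test, R 4.3.3), with Benjamini-Hochberg adjustment over 17369 of 46477 genes and a threshold of 0.05. Levels are TMM-scaled CPM, and the standard error is the log2 fold change over the root of F. The fit was tested on simulated data with changes planted in the MTCH2-/- ESC group alone and no correlation between same-numbered libraries. Changes as small as the median complex I differences were not among them, so that test does not cover such changes or paired libraries. The alternatives were DESeq2 1.42.0, other scalings and filters, a fit of the compared groups alone, the replicate number as a block, and each library left out in turn. Deviations of same-numbered libraries from their group means correlated at 0.107 to 0.471 in 12 pairs, against -0.317 to 0.0067 in 24 pairs of other numbers. The labels repeat the same numbers, after the letters FF, in all 4 groups, and the deviations pair the libraries by them. What the numbers stand for is not stated. The study blotted MTCH2 F/F ESC clones with and without Cre, and whether these gave the libraries is not stated either. The main fit does not use the pairing, and the replicate block does. Positions, exon lengths and overlaps came from GENCODE vM21 and promoters from RefSeq.

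The rule for named genes took the 7 nuclear core subunits, the 6 members with the largest log2 fold change among the calls of each of the 5 comparisons, and every member called with at least a 2-fold change. The remaining members were described by counts and single values, Ndufab1, Ndufaf4 and others singled out after their values were seen. From other lists at most the 3 largest changes of a comparison were named, besides Nrf1 and Yy1, whose motifs were searched. The members and lists were chosen with earlier results of these data known. The values of 1 member, which stays in all counts and sums, are not reported here.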

Additional observations from a re-analysis of the deposited data

Results flagged for a closer look

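The response to priming, taken as the log2 fold change from ESCs to EpiLCs, differed between MTCH2-/- and MTCH2 F/F cells for 6 nuclear complex I genes and 5 mitochondrially encoded ones, by the interaction term of edgeR with 3 libraries in each of the 4 groups. The MTCH2-/- response was the lower one for Ndufaf3 (-0.73, adjusted p = 6.38e-04), Ndufaf6 (-0.47, adjusted p = 0.0394), Ndufa8 (-0.37, adjusted p = 0.00975), Ndufa2 (-0.35, adjusted p = 0.0268), Ndufaf7 (-0.33, adjusted p = 0.032) and Ndufc2 (-0.31, adjusted p = 0.0391). It was the higher one for mt-Nd1 (0.39, adjusted p = 0.0052), mt-Nd2 (0.46, adjusted p = 9.23e-04), mt-Nd4 (0.49, adjusted p = 4.88e-04), mt-Nd5 (0.57, adjusted p = 6.68e-05) and mt-Nd6 (0.61, adjusted p = 7.85e-05). The value of mt-Nd6 is uncertain, since the kit does not keep the strand. The 6 of 45 genes are 13.3%, below the 17.2% of all genes tested with a lower MTCH2-/- response. Ndufa2, Ndufaf6, Ndufaf7 and Ndufc2 lost the call in 6, 7, 8 and 10 of 12 fits without a library, and Ndufaf3 and Ndufa8 in 0. The cause was not tested.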

How the results depend on the processing

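No member's call turned direction under any setting tried. The 1 gene that rose on priming in MTCH2-/- cells became 2 with upper quartile scaling, DESeq2, a strict low count filter or the replicate block, 0 without a filter or with only the compared groups in the fit, and 0 to 2 when a library was left out. The 21 that fell there became 13 with only the compared groups and 12 to 21 without a library, while the 13 that fell in MTCH2 F/F cells became 18 with only the compared groups and 9 with upper quartile scaling. In ESCs, MTCH2-/- against MTCH2 F/F, 16 to 29 genes were lower and 0 to 1 higher without a library. In EpiLCs 28 to 33 were lower and 0 to 1 higher, and 1 was higher, Ndufaf4, under the strict filter. The responses that differed numbered 2 to 8 without a library, and in MTCH2 F/F cells 10 to 14 genes fell and 5 to 7 rose on priming. The replicate block added calls and removed none, so that 15 genes fell and 7 rose in MTCH2 F/F cells, 23 fell in MTCH2-/- cells, 29 were lower in MTCH2-/- ESCs and 34 in MTCH2-/- EpiLCs, and 7 responses differed. Among the values of the named genes, 93 of the leave-one-out values dropped past the threshold and 15 came within it, and 20 and 13 did so under the other settings. No scaling moved the median of all genes by more than 0.054. The cause of these shifts was not tested.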
